A study of Rattus norvegicus with 3 samples.

Results

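The kidney transcriptome of rats given a low dose of a blue mussel protein hydrolysate was compared with that of rats given water, using 2 of the 3 arrays of the series. Both groups, like the high-dose group shown beside them, were male spontaneously hypertensive rats, a strain derived from Wistar rats that develops high blood pressure without treatment. The animals were 8 to 10 weeks old and weighed 280 to 330 g, and each group held 10 rats. The control group took about 3 mL of water by mouth for 28 days, the low-dose group took 10 mg/kg of the hydrolysate, HBMP in the labels, per day in that volume, and the high-dose group 20 mg/kg. Equal amounts of kidney RNA from 4 rats were pooled per group, labelled with Cy3 and put on 1 rat oligonucleotide array. The labels do not say which region of the kidney was taken. Because no pool was repeated, no test was possible, and every difference below describes these arrays. The comparison addressed which kidney genes differ in hypertensive rats that took the hydrolysate.

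The kidney filters blood at the glomerulus, whose podocytes form the last layer of the filter, and then recovers most of the filtrate along a tubule. The proximal tubule takes back glucose, phosphate, amino acids and small peptides, secretes drugs and metabolites, and makes glucose. The thick ascending limb and the distal tubule recover salt, and the collecting duct adjusts water, potassium and acid. The kidney also sets blood pressure through angiotensin, prostaglandins and salt handling, and when its tubules are damaged they switch on genes of injury, matrix and inflammation.

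All 11 markers of kidney epithelium stood above background on each array, and their summed intensity was 101974, 101238 and 91378 on the arrays of the control, the low dose and the high dose. The near-equal sum of the first 2 arrays does not mean that each marker was level. At the low dose 9 of the 11 were lower than on the control, with a median log2 difference of -0.30. Pax8 and Aqp2 were higher, and Aqp2, a bright gene, went from 12205 to 30805. A gene's level is its scaled net intensity, which is the brightness of its probe after background subtraction with all arrays brought to a common 75th percentile. Of 17853 named genes, 9746 had a signal-to-noise ratio of at least 3 on both arrays and could be compared. Their median log2 difference, low dose minus control, was -0.11, and 88.7% of them lay within 1.5-fold. "Rose" and "fell" are used below only for a difference of at least 2-fold. On this rule 241 genes rose (2.47% of those measured) and 66 fell (0.677%). At the lower limit of 1.5-fold, 655 genes were higher (6.72%) and 445 lower (4.57%). The range ran from -1.63 to 5.86, and 45 genes were at least 4-fold higher whereas 0 were at least 4-fold lower. Repeated spots of a probe had a median SD of 0.24 on the control and 0.18 on the low-dose array (log2). This makes a technical SD of about 0.30 for a difference between single spots. That spread holds nothing of the variation between rats. Of the genes that rose, 120 lay among the 3243 genes dimmest on the control array, 83 among the next 3253 and 38 among the 3250 brightest, while for those that fell the numbers were 18, 17 and 31. With normexp, a background correction that draws dim values together, 133 genes rose and 23 fell, and below a gene is named where this setting took it under 2-fold. A corner of the control array was weak. All spots of 110 measured genes (1.13%) lay there, of which 17 rose and 0 fell, and genes read only in that corner are named as such.

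**Figure D1:**
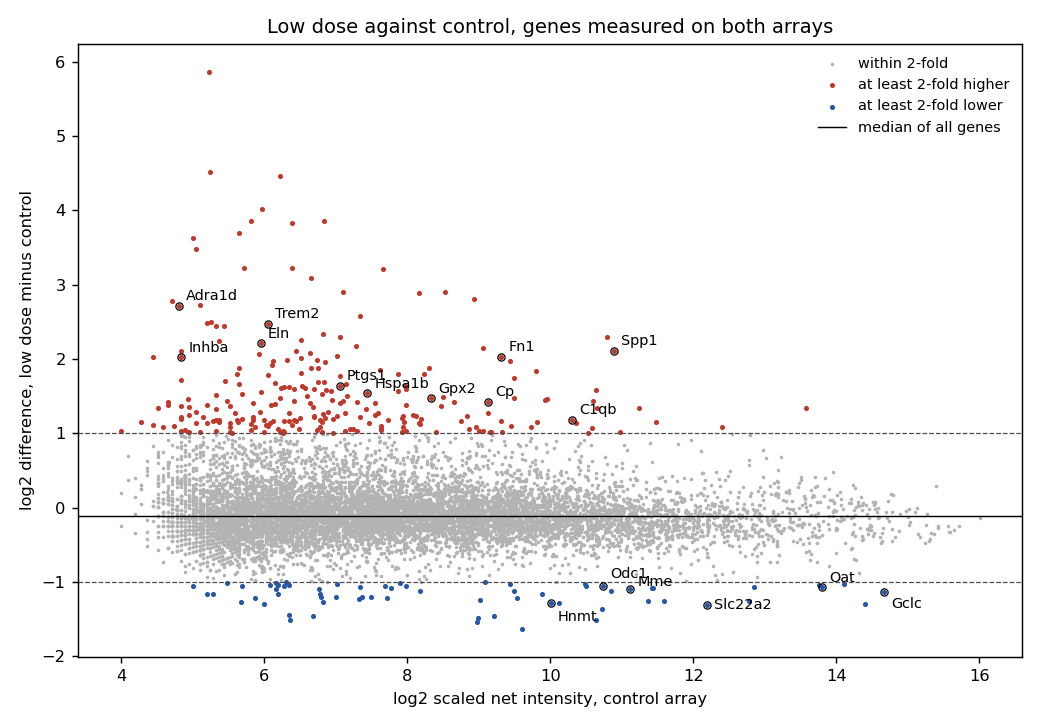
Each point is a gene measured on both arrays, with the control level (log2 scaled net intensity) on the horizontal axis and the log2 difference, low dose minus control, on the vertical axis; dashed lines mark 2-fold and the solid line the median of all genes. The 241 genes that rose reach 5.86, while the 66 that fell stop at -1.63 and include Gclc at the bright end.

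Carriers of the proximal tubule were lower on the low-dose array as a group, by small amounts. Of 27 measured genes of proximal uptake (29 listed), 26 lay below 0 and 26 below the median of all genes. The median was -0.39 log2, 4 genes were at least 1.5-fold lower, and 0 fell past 2-fold. Slc34a1, the main phosphate carrier of the brush border, read 22995, 18668 and 18251 on the arrays of control, low dose and high dose, a difference of -0.30 at the low dose. Lrp2 encodes megalin, the receptor that retrieves filtered proteins, and read 8122, 5760.3 and 5602 in the same order of arrays, which is used for every triplet of intensities below. The lowest member was Slc15a2, which takes up dipeptides and tripeptides from the filtrate. It read 146, 75.9 and 119, a difference of -0.95 at the low dose and -0.29 at the high dose. Slc6a18, an amino acid carrier of the brush border, read 3599, 1962 and 2296 (-0.88 log2), and Slc9a3, the sodium-proton exchanger that drives much of proximal sodium uptake, read 102, 56.7 and 87.6 (-0.84). Low-dose and high-dose differences share the control array, so they are set side by side and not correlated. In pooled whole-tissue RNA, fewer cells of a type and less RNA per cell cannot be told apart.

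Carriers that secrete organic ions were also lower. The list had 21 measured members of 25, a median of -0.54, 10 members at least 1.5-fold lower and 4 that fell past 2-fold, against 1 that rose. The cation carrier Slc22a2 fell 2.49-fold, from 4676 to 1880.4, and read 2676 at the high dose. Slc22a24, a related carrier, fell 2.85-fold, and its intensities were 1596, 561 and 960.5. Slco1a1 and Slco1a6, organic anion carriers of the apical membrane, read 542, 271 and 607 and 237, 118 and 292. In both, the low-dose array alone was low, since the high-dose array stood slightly above control, and normexp took them under 2-fold (-0.84 and -0.75 log2). The basolateral anion carriers of the first secretory step moved little: Slc22a6 read 21172, 15859 and 14939 (-0.42 log2) and Slc22a8 read 13642, 12999 and 11034 (-0.07). The member that rose was Slco4a1, which read 114, 1662 and 179.

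Hepatocyte nuclear factor 1 is a transcription factor that drives many proximal tubule genes, so the promoters of the genes that fell were searched for the core letters GTTAAT of its motif on both strands. The motif was chosen after the values had been seen. RefSeq windows of 300 bases, build GRCr8, from 250 bases before to 50 bases after the transcript start, were matched by symbol for 8027 of the measured genes. These letters occurred in 7 of 57 genes that fell (12.3%), 7 of 169 that rose (4.14%), 379 of all 8027 measured genes (4.72%) and 7.37% of all 27457 windows in the table. The 7 genes were Akr1c12l1, Gc, Mep1b, Slc22a24, Slc23a1, Slc23a3 and Slc7a12, and 7 matches are too few to set a share against another. A match is a description of letters and not a binding site. For Gc, Slc22a24 and Slc7a12, which include the gene that fell most, the 250 bases before the transcript start are shown with these letters in capitals, which read ATTAAC where the match lies on the other strand. The windows are chr14:18916005-18916254 on the plus strand, chr1:214394682-214394931 on the minus strand and chr2:88868104-88868353 on the minus strand.
Gc: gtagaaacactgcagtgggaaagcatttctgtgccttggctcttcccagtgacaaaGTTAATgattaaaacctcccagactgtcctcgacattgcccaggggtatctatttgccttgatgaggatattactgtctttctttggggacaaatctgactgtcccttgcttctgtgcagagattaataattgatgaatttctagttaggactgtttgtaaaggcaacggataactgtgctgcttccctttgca
Slc22a24: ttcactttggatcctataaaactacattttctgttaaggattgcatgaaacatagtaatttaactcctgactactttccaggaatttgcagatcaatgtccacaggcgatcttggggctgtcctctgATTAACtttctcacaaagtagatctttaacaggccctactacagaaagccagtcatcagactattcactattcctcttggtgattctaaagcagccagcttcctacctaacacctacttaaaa
Slc7a12: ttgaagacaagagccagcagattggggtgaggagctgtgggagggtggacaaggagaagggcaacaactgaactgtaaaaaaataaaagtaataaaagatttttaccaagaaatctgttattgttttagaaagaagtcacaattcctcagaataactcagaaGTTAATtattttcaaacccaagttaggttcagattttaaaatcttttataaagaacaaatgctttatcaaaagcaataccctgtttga
The match began 194 bases before the start in Gc, 123 bases before it in Slc22a24 and 88 bases before it in Slc7a12. Gc encodes the vitamin D binding protein and fell 3.10-fold, with intensities of 779.7, 252 and 562. Slc7a12 encodes an amino acid carrier and read 210.1, 90.3 and 362, so that its high-dose level lay above control (0.79 log2) and its low-dose level below it (-1.22, or -0.87 with normexp).

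Both subunits of glutamate-cysteine ligase, the rate-limiting enzyme of glutathione synthesis, fell. Gclc, the catalytic subunit, read 25923, 11816 and 17649 and fell 2.19-fold, and Gclm, the modifier subunit, read 166, 72.0 and 149 and fell 2.30-fold, though with normexp the latter differed by -0.80 log2. The low-dose array was the lowest of the 3 for each, with the high-dose array between it and the control for Gclc. The rest of the antioxidant list did not follow them as a block. Of 28 measured members, 1 rose and 2 fell, with 4 higher and 4 lower at the 1.5-fold limit, and the median of -0.15 lay near that of all genes. Gpx2, a glutathione peroxidase best known from the gut, was the member that rose, 2.77-fold at the low dose, and read 322, 892 and 311. Hmox1, the inducible haem oxygenase, read 53.2, 92.2 and 46.9 (0.79 log2), and Nqo1, a quinone reductase that responds to oxidative stress, read 33.1, 32.7 and 34.7 (-0.02). Nat8, which acetylates cysteine conjugates in the last step of mercapturic acid synthesis, read 20430, 11113 and 13429 (-0.88). The related Nat8f2 fell 2.43-fold, from 1115 to 458. Acy3, which removes the acetyl group from such conjugates again, read 19729, 12106 and 17161 (-0.70). Among 23 measured conjugating enzymes in all, the median was -0.16, 1 was at least 1.5-fold lower and 0 were at least 1.5-fold higher.

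Amino acid metabolism was mostly lower by small amounts, with a few larger falls. Of 40 measured genes, 35 lay below 0 and 29 below the all-gene median. The list median was -0.31, and 6 genes were at least 1.5-fold lower against 1 higher. Oat, which converts ornithine to a precursor of proline and glutamate, was the list member that fell: it read 14303, 6814 and 11046, 2.10-fold lower at the low dose. Aadat, an aminotransferase of lysine and kynurenine breakdown printed on 10 spots, fell 2.09-fold, from 7330.2 to 3503, and read 6386 at the high dose. Aspg, an asparaginase, fell 2.39-fold and read 2642, 1106 and 1404. Odc1, which turns ornithine into the polyamine precursor putrescine, fell 2.07-fold (-0.96 log2 with normexp) and read 1707, 825 and 1408. Oat and Odc1 both use ornithine. Ass1 and Arg2, which take part in making and splitting arginine, read 3991, 3644 and 3856 and 308, 229 and 319 with differences of -0.13 and -0.43. Gatm, the first enzyme of creatine synthesis, differed by -0.38 and the creatine carrier Slc6a8 by -0.56. Bhmt, which remethylates homocysteine, read 4694, 2959 and 3156 (-0.67).

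Sugar and energy genes mostly differed by small amounts. In gluconeogenesis and fructose use, 12 of 13 measured genes lay below 0 and 11 below the all-gene median. The list median was -0.33, and 0 fell. The lowest was Slc2a5, the fructose carrier, at 1116, 606 and 649 (-0.88 log2), and next was Khk, which phosphorylates fructose, at 16276, 10648 and 15539 (-0.61). Pck1, the gate of gluconeogenesis, differed by only -0.06, and G6pc1, which releases free glucose, by -0.22. Glycolysis had a median of -0.11 over 17 genes, equal to that of all genes to 2 decimals, with 0 higher and 0 lower at 1.5-fold. The citrate cycle (23 genes, median -0.20) likewise had 0 higher and 0 lower at that limit. Of 38 respiratory chain genes, 1 passed 1.5-fold, and that was Cox8b, a muscle and brown fat isoform, which read 83.3, 1186 and 354. Similarly, the 30 genes of fatty acid oxidation had a median of -0.19, with 1 that rose. It was Cpt1b, the muscle and brown fat form of the enzyme that admits fatty acids to mitochondria, at 252, 764 and 534, whereas Cpt1a, the form of liver and kidney, read 383, 301 and 313 (-0.35).

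**Figure D2:**
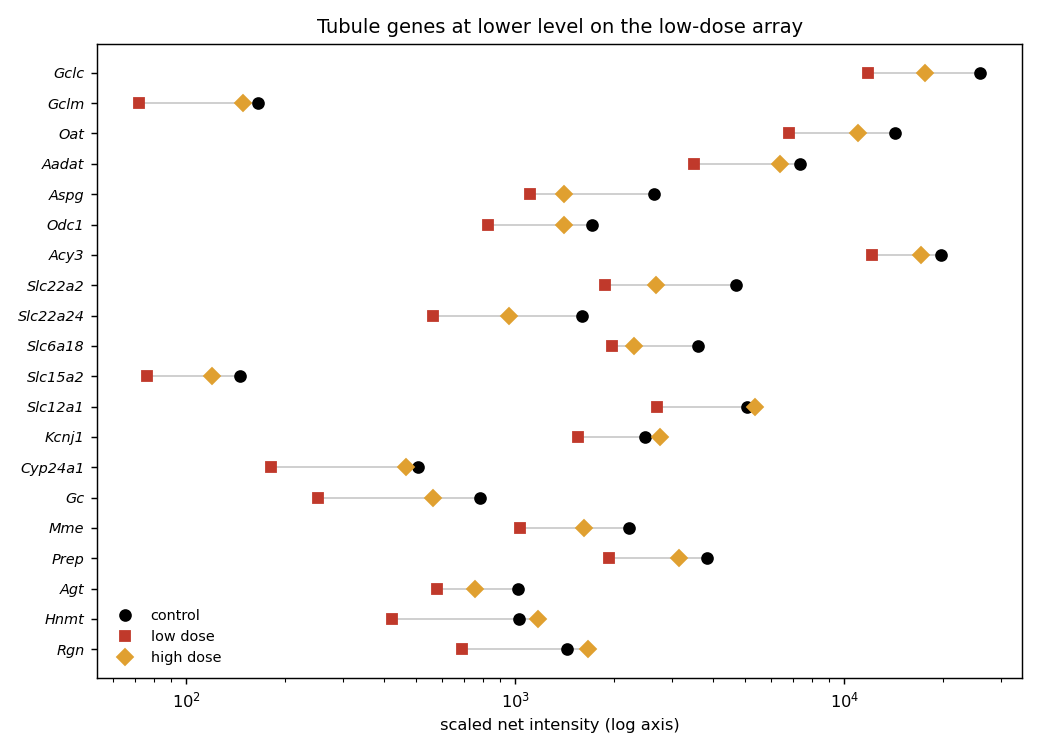
Scaled net intensity (log axis) of 20 tubule genes on the control (circles), low-dose (squares) and high-dose (diamonds) arrays; each marker is 1 pool. The genes were chosen for a lower level on the low-dose array, so its marker is the lowest of the 3 in every row by that choice. The high-dose marker lies between the others for most genes and above control for Slc12a1, Kcnj1, Hnmt and Rgn.

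Hnmt and Rgn were low on the low-dose array only. Hnmt, which inactivates histamine by methylation, read 1029, 423 and 1177 and fell 2.43-fold at the low dose. Rgn encodes regucalcin, a calcium-binding lactonase of liver and kidney, and read 1441, 691 and 1661 over 10 spots, falling 2.08-fold (-0.96 log2 with normexp). The glucagon receptor Gcgr read 467, 247 and 402 (-0.92 log2) and the glutamine carrier Slc38a3 read 117, 58.6 and 100.2 on 10 spots each. Both were at least 1.5-fold lower with spot values that did not overlap between the arrays. They are among 16 such genes of the 1002 measured on at least 5 spots, and were picked for this. Klf15, a transcription factor of amino acid and fat metabolism, read 1178, 738 and 732 (-0.67) and so stood at nearly equal levels on the arrays of both doses.

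The thick ascending limb had a lower level at the low dose and not at the high dose. Of 13 measured genes of 14, 6 were at least 1.5-fold lower and 0 fell past 2-fold. The median was -0.49 at the low dose and 0.08 at the high dose over the same genes. Slc12a1, the sodium-potassium-chloride carrier that loop diuretics block, read 5071, 2695 and 5363, a difference of -0.91 at the low dose and 0.08 at the high dose. Kcnj1, the potassium channel that recycles potassium into the lumen for it, read 2478, 1551 and 2764 (-0.68 and 0.16). Egf, a growth factor made in this segment and printed on 10 spots, read 1512, 975 and 1523 (-0.63 and 0.01), and a further measured probe of the gene differed by -0.63 at the low dose. For these 3 genes the control and high-dose arrays stood together and the low-dose array below them. Casr, the calcium-sensing receptor, was low at both doses (725, 429 and 471), as was Cldn16, a magnesium-permeable claudin (91.3, 54.7 and 57.5). Umod, the most abundant protein of urine, read 37002, 28204 and 29647 (-0.39).

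Other segments differed in direction. All 14 measured genes of the acid-secreting intercalated cell lay below 0, between -0.56 and -0.10, and 12 lay below the all-gene median. Their median was -0.31, and 0 passed 1.5-fold. Foxi1, the transcription factor that specifies these cells, read 1060.5, 805 and 679.5 (-0.40). In the distal convoluted and connecting tubule the median was -0.21 over 12 genes. Slc12a3, the thiazide-sensitive carrier, read 2406, 1830.5 and 1535 (-0.39), and Wnk4, a kinase that regulates it, read 51.4, 90.3 and 95.8 (0.81), the list's only gene past 1.5-fold, from a spot in the weak corner. The principal cell of the collecting duct was split. Its 14 measured genes had a median of 0.10, 2 rose and 6 were at least 1.5-fold higher. Aqp2, the water channel that vasopressin controls, read 12205, 30805 and 18756 and rose 2.52-fold, and Fxyd4, a sodium pump regulator, read 1607, 4075 and 3097 and rose 2.54-fold. The epithelial sodium channel subunit Scnn1a read 103, 78.2 and 98.4 (-0.40). Podocyte genes stayed near the all-gene median (-0.08 over 14 genes), with Nphs1, nephrin, a protein of the filter's slit, at 130.1, 88.4 and 90.3 (-0.56 log2). Akr1b1 and Slc14a2, which make an osmolyte and carry urea in the inner medulla, read 52.4, 492 and 239 and 114, 369 and 365. Both rose at each dose, and they were the only 2 of the 10 measured genes of medullary osmolyte and urea handling that rose at the low dose. That list had a median of 0.15, with 6 genes above 0 and 4 below it. Whether the pools held more medulla than the control was not tested.

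Among genes of the angiotensin system, some peptidases and the substrate were lower, while the converting enzyme and the main receptor differed by less. Of 14 measured genes of 19, 1 fell, 5 were at least 1.5-fold lower and 0 were higher at that limit, with a median of -0.25. Mme encodes neprilysin, a membrane peptidase that splits angiotensins, natriuretic peptides and bradykinin. It read 2219, 1035 and 1614 and fell 2.14-fold. Prep, a peptidase that cuts after proline, read 3827, 1926 and 3157 (-0.99 log2), just short of 2-fold. Agt, the angiotensinogen substrate, read 1018, 580.1 and 756 (-0.81). Ace, the converting enzyme, read 123, 97.0 and 102 (-0.35), and Agtr1a, the main angiotensin receptor, 427, 497 and 476 (0.22). Ace was read on 1 spot per array, and its difference was close to the technical spread of 0.30 for single spots. Agtr1a was averaged over 10 spots per array, so that spread does not apply to it. Its SDs between spots were 0.18 on the control and 0.15 on the low-dose array, and its spot values overlapped between the arrays.

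Other vasoactive genes moved singly. Adra1d, a subtype of the alpha adrenergic receptor printed on 10 spots, read 27.9, 183 and 31.5 and rose 6.58-fold at the low dose, with the control and high-dose arrays alike. Adra1a and Adra1b, the other subtypes, read 43.4, 38.4 and 45.6 (-0.18) and 324, 441 and 332 (0.44, in the weak corner). Ptgs1, the constitutive cyclooxygenase, read 133, 415 and 249.8 and rose 3.12-fold, whereas the inducible form Ptgs2 was not well above background on any array. Of 26 measured eicosanoid genes, 1 rose and 0 fell, and at 1.5-fold 3 were higher and 5 lower. Among the lower ones were Cyp2c11, a male-specific cytochrome, at 300.2, 158 and 401 (-0.92), and Cyp2j4, an epoxygenase, at 418, 227 and 271 (-0.88, with a further probe at -0.34). Cyp4a2, which makes a vasoconstrictor from arachidonic acid, read 36261, 28404 and 30334 (-0.35). Guca2a, guanylin, a peptide that promotes sodium loss, rose 2.08-fold and read 465, 965 and 557. Nos3, the endothelial nitric oxide synthase, read 32.4, 39.4 and 34.6 (0.28), and the natriuretic peptide receptor Npr1 read 421, 562 and 439 (0.42). In the kallikrein system 5 genes were measured and 0 passed 1.5-fold in either direction. Klk1, tissue kallikrein, read 4436, 6143 and 5633 (0.47, in the weak corner).

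Vitamin and mineral genes showed a few clear falls and rises. Cyp24a1, which degrades active vitamin D, read 507, 182 and 465 and fell 2.79-fold, with the high-dose array near control. The vitamin D receptor Vdr read 62.8, 36.5 and 42.9 (-0.78 log2) and Cyp27b1, which makes the active vitamin, 70.8, 58.6 and 62.0 (-0.27). Over 16 measured genes the median was -0.29, with 2 that fell and 0 that were at least 1.5-fold higher. In vitamin A handling, Crabp2, which delivers retinoic acid to its receptor, rose 3.67-fold and read 50.2, 184 and 109. Rbp4, the plasma retinol carrier, read 978, 1767 and 1295 (0.85), and Aldh1a2, which makes retinoic acid, 29.7, 57.6 and 36.5 (0.96). Among iron genes Cp, caeruloplasmin, a copper oxidase that loads iron onto transferrin, rose 2.68-fold and read 558, 1497 and 689. The bright ferritin genes Fth1 and Ftl1 differed by -0.25 and -0.27, and the metallothioneins Mt1 and Mt2A by -0.23 and -0.02. Slc39a8 and Slc30a1, which bring zinc into and out of the cytosol, were both at least 1.5-fold lower (314, 185 and 244 and 99.3, 62.4 and 73.0).

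Genes of tubular injury had the highest median of the 57 lists. Of 16 measured members of 20, 9 rose and 1 fell, and the median was 1.28 at the low dose against 0.24 at the high dose. Havcr1, kidney injury molecule 1, is a receptor that damaged proximal cells put on their surface to take up debris. It read 13.7 on the control and 10.9 on the high-dose array, neither well above background, and 223 on the low-dose array, which is at least 16.3-fold higher than control. Spp1, osteopontin, a secreted matrix and chemotactic protein, read 1891, 8175 and 2931 and rose 4.32-fold over 10 spots. Fgb, a fibrinogen chain that injured tubules also make, read 26.3, 179.6 and 16.4 (the last not well above background) and rose 6.84-fold. For Havcr1 and Fgb the low-dose array alone stood high, while Spp1 was also higher at the high dose (0.63 log2). Vcam1, an adhesion molecule, read 162, 296 and 182 (0.87 log2). Tff3, a trefoil peptide that protects epithelia, was the member that fell, with 17552, 8643 and 15999 (-1.02 log2, -0.97 with normexp), and is named here after its value was seen. The 9 members that rose include several that macrophages or fibroblasts also express.

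The cytoskeleton moved with the injury genes. Among 25 measured genes of epithelial cytoskeleton and adhesion the median was 0.61 and 6 rose. At the 1.5-fold limit 15 were higher and 1 was lower. Krt18, a keratin of simple epithelia, read 362, 1012 and 540 and rose 2.80-fold, and its partner Krt8 read 57.0, 85.9 and 99.2 (0.59). Vim, vimentin, an intermediate filament of mesenchymal and dedifferentiated cells, rose 2.26-fold (0.79 log2 with normexp) and read 85.2, 192 and 125. The calcium-binding proteins S100a4 and S100a11 read 692, 2706 and 1239 and 1595, 4800 and 2895, and Tmsb10, an actin-binding peptide, 2425, 6151 and 3244. All 3 rose at the low dose and none rose past 2-fold at the high dose. Anxa1 and Anxa2, annexins of the membrane cytoskeleton, read 1473, 2957 and 2049 and 1310.5, 2881 and 1787, past 2-fold at the low dose only.

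**Figure D3:**
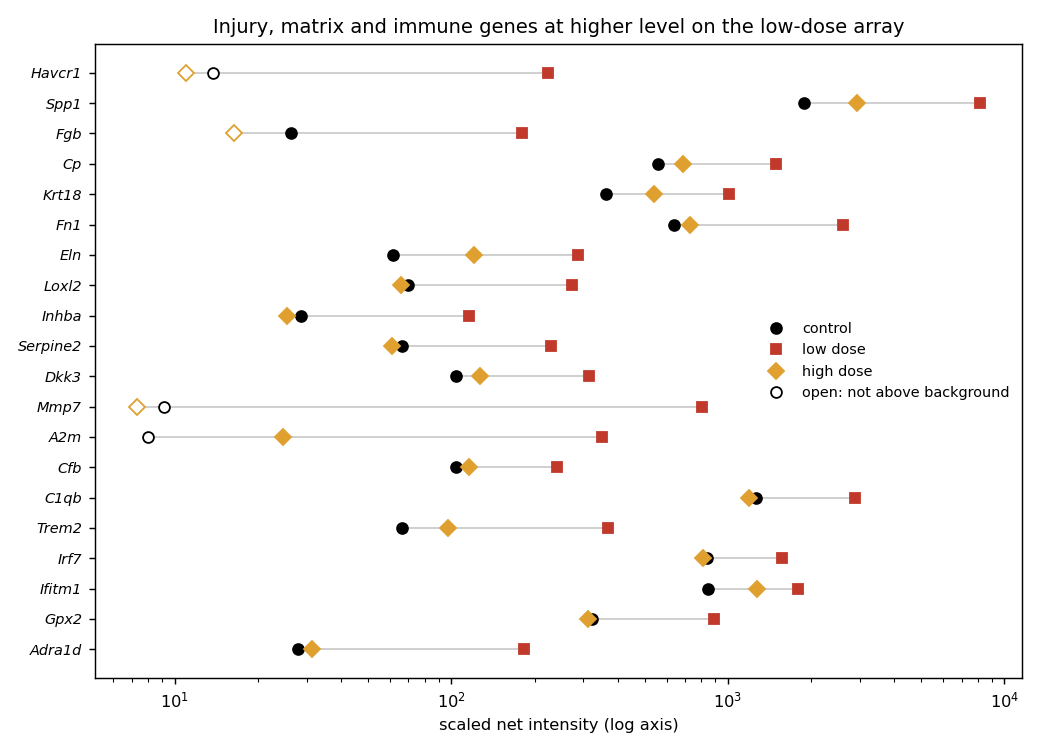
Scaled net intensity (log axis) of 20 genes, most of them of injury, matrix and immune response, on the control (circles), low-dose (squares) and high-dose (diamonds) arrays, with open markers where a probe was not well above background; each marker is 1 pool. The genes were chosen for a higher level on the low-dose array, so its square stands on the right in every row by that choice. The high-dose diamond lies nearer to the control circle than to the square for all but Ifitm1. Mfap5 and Cfd, which were high at both doses, are not among the genes shown.

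Matrix genes were among the most uniformly higher groups. Of 26 measured genes of collagens and their processing enzymes, 13 rose, 19 were at least 1.5-fold higher and 0 lower, with a median of 1.00 at the low dose and 0.11 at the high dose. Beyond the fibrillar collagens, Col16a1 read 106, 421 and 125 and rose 3.96-fold. A pair of enzymes that crosslink collagen rose as well: Plod2, a lysyl hydroxylase, read 79.9, 316 and 115 and Loxl2, a lysyl oxidase, 69.6, 274 and 65.7. The basement membrane chains Col4a1 and Col4a2 read 1369, 2496 and 917 (0.87 log2) and 40.0, 78.8 and 50.2 (0.98). A further probe of Col4a1 differed by -0.20, so its probes disagree. Of 21 measured glycoproteins and proteoglycans 8 rose and 0 were lower at 1.5-fold, with a median of 0.83. Fn1, fibronectin, the first scaffold of a healing matrix, read 636, 2603 and 732 and rose 4.09-fold. Eln, elastin, read 61.6, 286 and 120.4 and rose 4.64-fold. Mfap5, a microfibril protein that binds elastic fibres, read 28.5, 123 and 111, and unlike Fn1 it was high at both doses. The small proteoglycans Bgn and Dcn, which bind collagen fibrils, rose 2.11-fold and 2.14-fold and read 5409, 11429 and 5499 and 696, 1488 and 1021, with a further probe of Bgn at 0.59 log2. Sparc and Smoc2, matrix proteins of a shared family, read 2863, 6394 and 3622 and 718, 1995 and 731, each past 2-fold at the low dose only.

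Some proteases and some of their inhibitors rose. Mmp7, matrilysin, an epithelial metalloproteinase, was not well above background on the control (9.13) or the high-dose array (7.30) and read 809 on the low-dose array, at least 59.0-fold above control. A2m, a broad protease trap of plasma, was at least 25.6-fold higher at the low dose and read 7.99, 351 and 24.6, its control value also not well above background. Timp1, a metalloproteinase inhibitor on 10 spots, rose 3.40-fold and read 133, 452 and 183. Serpine2, an inhibitor of thrombin and plasminogen activators, rose 3.45-fold and read 66.2, 229 and 61.1. Mmp14, a membrane metalloproteinase that activates Mmp2, read 289.9, 632 and 266, and Adamts1, which cuts proteoglycans, 243, 492 and 248, both past 2-fold, the latter not with normexp (0.89 log2). Of 19 measured members in all, 5 rose and 1 fell, and at 1.5-fold 9 were higher and 2 lower. The one that fell was Mep1b, a meprin of the proximal brush border, at 3067, 1288 and 1942.

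Signals that act on matrix cells rose in part. In the transforming growth factor list 4 of 16 measured genes rose and 0 fell, although the median was only 0.03. The 4 were Inhba, the activin A subunit, at 28.5, 116 and 25.5, and 3 members of the latent binding protein family. Ltbp4 read 49.1, 170 and 105, Ltbp2 25.1, 65.3 and 20.1 and Ltbp1 45.7, 92.2 and 59.3. The receptor Tgfbr2 and the feedback inhibitor Smad7 differed by -0.29 and -0.20. Among 20 measured genes of the Wnt, Notch, BMP and hedgehog pathways, 4 rose. Among them Dkk3, a secreted Wnt modulator, read 104, 315 and 127 and rose 3.03-fold. Wnt5a and Bmp2, ligands of the same pathways, read 41.1, 91.2 and 56.6 and 33.1, 73.0 and 43.8, both past 2-fold at the low dose only. These are dim genes, and normexp took Inhba (0.95 log2), Ltbp2 (0.49), Ltbp1 (0.48), Wnt5a (0.54) and Bmp2 (0.46) under 2-fold. Bmp7, which the healthy tubule makes, read 1489, 1117 and 1018 (-0.41). Pdgfra, a growth factor receptor of fibroblasts, rose 2.03-fold (338, 685 and 382) and Gdf15, a stress-induced cytokine, 2.59-fold (45.7, 118 and 56.6), or 0.94 and 0.72 log2 with normexp. Vegfa and Areg, growth factors that act on vessels and epithelium, were at least 1.5-fold lower at 1398, 920 and 1056 and 157, 90.9 and 154, although a further probe of Vegfa differed by only -0.41 log2.

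Markers of fibroblasts stood higher on the same array. Of 14 such markers 9 were measured, 5 rose and the median was 1.02, and the summed intensity of the 13 on the arrays was 4574, 10251 and 5381. Several of these markers are matrix genes themselves. Smooth muscle markers had a median of 0.49 over 9 genes and a summed intensity of 1916, 2792 and 2808, and endothelial markers a median of 0.05 over 10 and a sum of 9282, 10614 and 9196. The part of these cells in the matrix differences was not tested.

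Complement was the immune list with the highest median, 0.98 over 17 measured genes of 27, with 8 that rose and 0 that fell. At the high dose the same genes had a median of 0.00. C1qb, a chain of the recognition molecule of the classical pathway that macrophages make, read 1267, 2872 and 1195 and rose 2.27-fold. Cfb, a protease subunit of the alternative pathway, read 104, 241 and 116 and rose 2.32-fold (0.88 log2 with normexp). In both the high-dose array lay nearer to the control than to the low-dose array. Cfd, the alternative pathway protease that fat cells secrete, was at least 25.6-fold higher, with intensities of 38.8, 992 and 586, the first not well above background. Unlike C1qb and Cfb it was high at both doses.

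Interferon-response genes were moderately higher at the low dose. Of 27 measured genes of 38, 22 lay above 0, 13 were at least 1.5-fold higher, 3 rose and 0 were lower at 1.5-fold, and the median was 0.52 against 0.04 at the high dose. Ifitm1, which blocks virus entry, read 846, 1792 and 1275 and rose 2.12-fold. Irf7, the factor that amplifies interferon synthesis, read 844, 1571 and 814 (0.90). Mx1, an antiviral effector that interferon induces, read 408, 521 and 265 (0.35), so the list did not move evenly.

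The DNA element that the interferon-activated complex binds was searched for on both strands of the RefSeq windows as GAAA and GAAA with any 2 bases between them, also a choice made after the values were seen. It occurred in 15 of 21 list genes with a window (71.4%) and in 9 of the 11 that were at least 1.5-fold higher (81.8%), against 239 of 8027 measured genes (2.98%). The list was compiled from known interferon targets, so the share describes the list and not the treatment. Over all genes that rose, the share was 5 of 169 (2.96%), and over those that fell 2 of 57 (3.51%). The promoters of Cxcl10 and Ifitm3, list members that rose, are shown with the element in capitals, from chr14:15988816-15989065 on the plus strand and chr1:205541759-205542008 on the minus strand.
Cxcl10: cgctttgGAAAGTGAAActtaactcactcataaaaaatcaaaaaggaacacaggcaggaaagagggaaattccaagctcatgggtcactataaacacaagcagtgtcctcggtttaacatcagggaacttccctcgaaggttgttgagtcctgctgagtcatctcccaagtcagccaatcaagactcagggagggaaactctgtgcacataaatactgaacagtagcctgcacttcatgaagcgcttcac
Ifitm3: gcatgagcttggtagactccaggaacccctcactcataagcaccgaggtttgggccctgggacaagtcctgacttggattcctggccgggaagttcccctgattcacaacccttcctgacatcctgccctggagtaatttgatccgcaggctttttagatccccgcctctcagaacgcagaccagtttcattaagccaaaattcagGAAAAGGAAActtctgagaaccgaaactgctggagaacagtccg
The element began 243 bases before the transcript start in Cxcl10, a chemokine that draws T cells, and 44 bases before it in Ifitm3. The 2 genes read 86.8, 194 and 87.6 and 244, 519.6 and 381, and normexp took them to 0.78 and 0.95 log2.

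Antigen presentation and innate signalling were higher by less. The class I list had a median of 0.44 over 18 genes with 1 that rose, Tapbp, which loads peptides onto class I molecules, at 90.2, 208 and 181 from the weak corner. Psmb8, an immunoproteasome subunit, read 108, 193 and 138 (0.83 log2), while the 33 genes of the standard proteasome list had a median of -0.02 with 0 past 1.5-fold in either direction. Class II genes had a median of 0.30 over 10, with RT1-Da at 1376, 2229 and 1316. In the Toll-like receptor and NF-kB list 3 of 22 genes rose and 9 were at least 1.5-fold higher. They included Birc3, an inhibitor of cell death that NF-kB induces, at 21.7, 47.1 and 21.9, and Il1rn, the natural antagonist of interleukin-1, at 30.8, 62.4 and 31.0. Icam1, which leukocytes bind on vessel walls, read 198, 407 and 262 and rose 2.05-fold. With normexp Tapbp (0.83 log2), Birc3 (0.31), Il1rn (0.37) and Icam1 (0.87) were all under 2-fold. The inhibitor Nfkbia, a fast readout of the pathway, differed by 0.08.

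Macrophage markers were also higher on the low-dose array, though they share genes with these lists. Of 14 markers 10 were measured, 5 rose and the median was 1.06, with a summed intensity of 17001, 25211 and 16129. Those that rose include C1qa, C1qb and C1qc, which are members of the complement list as well. With normexp C1qc was under 2-fold (0.94 log2). Trem2, a lipid receptor of tissue macrophages, read 66.2, 368 and 97.6 and rose 5.56-fold, and Cd68, a lysosomal marker, read 313, 599 and 293 (0.94 log2). Csf1r, the receptor on which these cells depend, read 61.6, 50.9 and 80.3 (-0.28), and a further probe of it differed by 0.41. Ctsk, a collagen-degrading cathepsin, rose 2.74-fold (123, 338 and 143), while the 29 measured lysosomal genes as a whole had a median of -0.08, and Ctsb, the bright cathepsin of the tubule, read 25224, 18105 and 20783 (-0.48). T and NK cell markers had a median of 0.69 over 5 genes, and those of B cells -0.20 over 2. Neutrophil markers were above background for 1, 3 and 4 of 9 genes. The part of these cells in the immune differences was not tested.

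**Figure D4:**
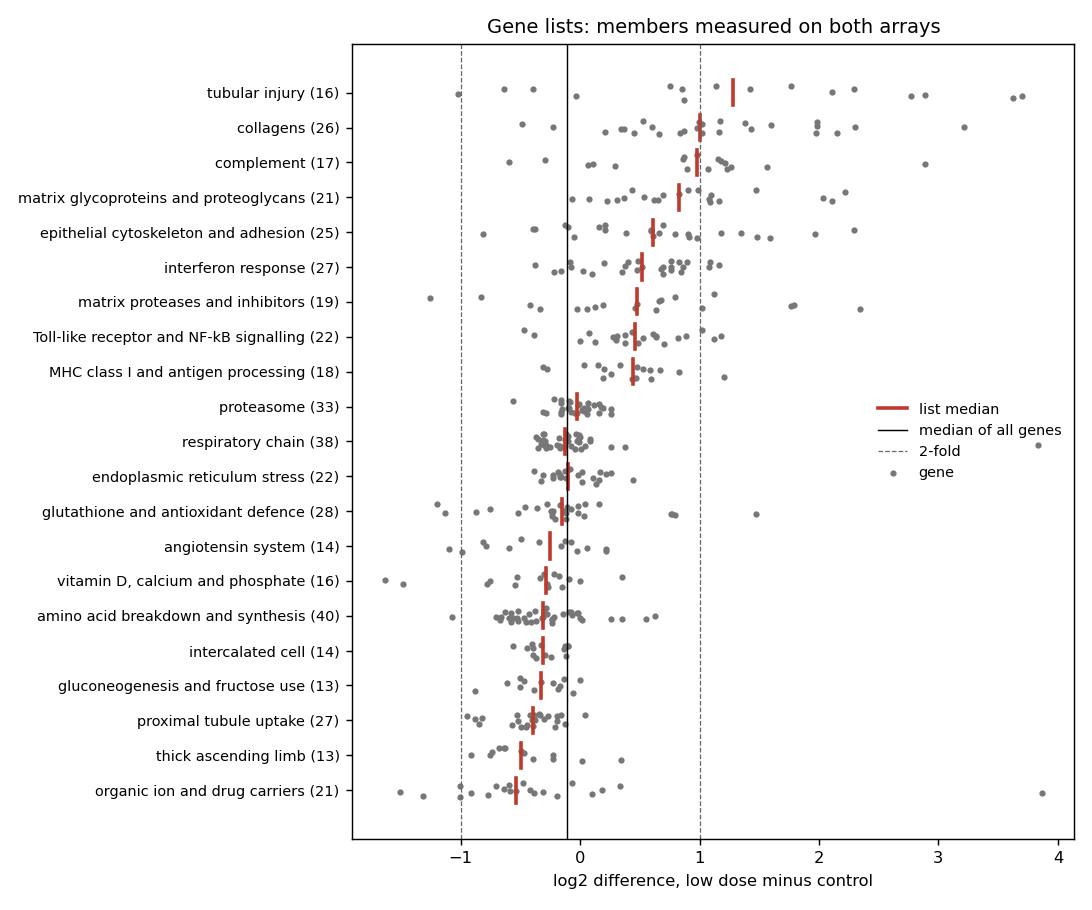
Each grey point is a gene of a list measured on both arrays, placed by its log2 difference, low dose minus control (horizontal axis); the number after each list name is its count of points, red bars are list medians, the solid line is the median of all genes (-0.11) and dashed lines are 2-fold. Injury, collagen and complement genes lie farthest to the right with medians of 1.28, 1.00 and 0.98, the respiratory chain lies near the solid line, and organic ion carriers have the lowest median at -0.54.

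The unfolded protein and hypoxia responses were near level, whereas the p53 and apoptosis list stood somewhat higher. The unfolded protein response had a median of -0.10 over 22 genes and 0 past 1.5-fold in either direction, with the chaperone Hspa5 at 3994, 3759.9 and 3346 (-0.09 log2). Cytosolic heat shock genes had a median of -0.16 over 17. The 2 that rose were Hspa1b, the inducible chaperone, on 10 spots at 174, 506 and 253, and Stip1, its co-chaperone, at 45.7, 97.0 and 114 from the weak corner (0.53 log2 with normexp). The hypoxia list had a median of -0.13 over 16 genes, with 0 higher and 2 lower at 1.5-fold. In the p53 and apoptosis list 3 of 25 genes rose, 10 were at least 1.5-fold higher and 0 lower, with a median of 0.25 at the low dose and 0.29 at the high dose. Those that rose were Bbc3, a trigger of cell death, at 51.4, 117 and 90.3 (0.64 log2 with normexp), and the annexins Anxa1 and Anxa2. The annexins are the same genes that were given above with the cytoskeleton. Cdkn1a, the best known p53 target, read 4834, 4493 and 4068 (-0.11) and Mdm2 241, 287 and 241 (0.25). The probes of Cdkn1a disagree, since a dimmer probe differed by 1.10. Of 19 measured proliferation genes 2 rose, 5 were at least 1.5-fold higher and 0 lower, with a median of 0.24 (0.05 with normexp). Cdk1, the kinase that drives mitosis, read 49.8, 110.2 and 54.3 over 10 spots and rose 2.21-fold (0.60 log2 with normexp). The inhibitor Cdkn1c read 968, 2631 and 1019.7 and rose 2.72-fold, whereas Pcna, a replication clamp, read 507, 498 and 558 (-0.02) and Mki67, a marker of dividing cells, 35.4, 54.5 and 27.5 (0.62).

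Most nuclear receptors and their co-regulators lay below 0 by small amounts. Of 25 measured nuclear receptors and co-regulators, 21 lay below 0 and 21 below the all-gene median. The list median was -0.35, with 3 genes at least 1.5-fold lower and 1 that rose. Nr0b2, a repressor that bile acids induce in liver, read 380.1, 219.9 and 428 (-0.79 log2), low at the low dose only. Hnf4a, a factor of proximal tubule identity, read 89.0, 67.2 and 90.3 (-0.41), and Nr3c2, the aldosterone receptor, 123, 86.4 and 118 (-0.51). Corticosteroid-response genes had a median of -0.13 over 13. Sgk1, which aldosterone induces, read 978, 913 and 498, a difference of -0.10 at the low dose and -0.97 at the high dose, and Cebpd read 804, 1253 and 546 (0.64 and -0.56). In the circadian clock 1 of 9 measured genes was at least 1.5-fold lower, Nr1d2, a repressor of the clock, at 49.1, 26.9 and 25.5, and Dbp, a clock output gene, read 6307, 4724 and 4374 (-0.42). The hour of collection is not in the labels. Of 19 immediate early genes 2 rose, 6 were at least 1.5-fold higher and 0 lower, with a median of 0.37 at the low dose and 0.42 at the high dose. Those that rose, Atf3 and Klf10, read 68.5, 178 and 130.4 and 104, 245 and 232 (0.87 and 0.89 log2 with normexp) and are named after their values were seen. Egr1 read 135, 142 and 277, 0.08 at the low dose and 1.04 at the high dose.

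Several genes of fat cells rose. In the lipid synthesis and storage list 5 of 16 measured genes rose. They included Dgat2, which makes triglyceride, at 574, 1167 and 887, which normexp took to 0.99 log2, while cholesterol synthesis stayed near the median of all genes: over 20 cholesterol genes the median was -0.07. Adipoq, the hormone adiponectin, read 83.3, 779 and 680.4 and rose 9.35-fold. Retn, resistin, was at least 16.8-fold higher (11.4, 230.5 and 262, the first not well above background). Of 10 white adipocyte markers on the arrays, 5, 8 and 8 stood above background on the 3 arrays, and their summed intensity was 466, 3587 and 2559. Of 8 brown adipocyte markers, 5, 5 and 5 stood above background, and the sum was 2350.3, 8539 and 5304. The brown markers did not move together. Of the 5 measured on both arrays 3 rose, while Fabp3 differed by 0.04 log2 and Ppargc1a by -0.51. Lep and Plin1, defining white adipocyte genes, were not well above background on the low-dose array. The part of adipose tissue in the pools was not tested. Markers of urothelium, the lining of the renal pelvis, were mixed: Upk1a read 86.8, 373 and 254, Upk3a was at least 19.6-fold higher (26.3, 515 and 318, the first not well above background), and Upk1b read 70.8, 68.2 and 80.3 (-0.05 log2). Adrenal cortex markers were near background, with 2, 3 and 3 of 9 above it and a sum of 189, 162 and 207.

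Some probes were printed on 10 spots, which gives the only repeated measurement in these data. Of 1002 measured genes on at least 5 spots, 33 rose and 4 fell, and the spot values of 32 and 4 of these did not overlap between the arrays. At 1.5-fold, 67 higher and 16 lower genes of the 1002 had spots that did not overlap. The genes without overlap at smaller differences were not counted, so no share over all 1002 genes can be set beside these counts. A 2-fold difference is large beside the median SDs between spots of 0.24 and 0.18, so the lack of overlap adds little to it. The genes named next were picked for having no overlap. Timp1 had an SD between spots of 0.20 on the control and 0.20 on the low-dose array, around a difference of 1.77. Spp1 varied more on the control array, with an SD of 0.46 against 0.17, around a difference of 2.11. Pf4, a platelet chemokine, read 75.2, 230.4 and 117 with SDs of 0.34 and 0.20, and Ndn, a neuronal growth suppressor also made by fat precursors, 43.5, 142 and 71.4 with SDs of 0.38 and 0.15 (0.93 log2 with normexp). Among the lower genes Enpp3, an ecto-enzyme that splits nucleotides, read 565, 301 and 398 with SDs of 0.14 and 0.13, and Areg differed by -0.79 with SDs of 0.16 and 0.15. These SDs describe spots on 1 array of 1 pool.

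**Figure D5:**
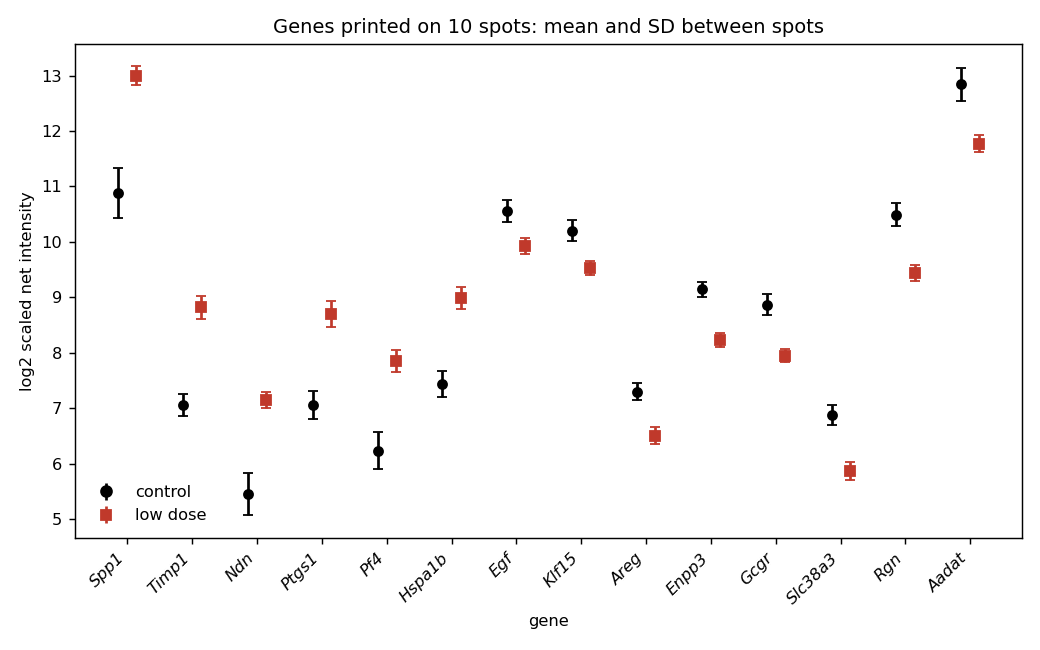
Mean log2 scaled net intensity of 14 genes printed on 10 spots, on the control (circles) and low-dose (squares) arrays; bars are the SD between spots of 1 array and not between animals. The genes were chosen among those whose spots did not overlap between the 2 arrays, and they range from Spp1, 2.11 higher, to Aadat, 1.07 lower.

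Genes seen on 1 array only add to both sides. Above background on the low-dose array alone were 710 named genes, and on the control array alone 311. Besides those named, Bcat1, a cytosolic enzyme of branched-chain amino acid breakdown, was at least 13.9-fold higher (18.3 on the control, not well above background, and 254 on the low-dose array), and Fxyd3, a sodium pump regulator, at least 17.2-fold (12.6 and 236). In the other direction Hsd3b2, a steroid dehydrogenase, was at least 4.50-fold lower, with 60.5 on the control and 13.4 on the low-dose array, the latter not well above background. Aldh1b1, a mitochondrial aldehyde dehydrogenase, was at least 2.68-fold lower, from 131 to 49.0, again not well above background at the low dose. With normexp Hsd3b2 (-0.81 log2) and Aldh1b1 (-0.86) were both under 2-fold.

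Further genes ranked below the largest rises were Serinc2 (161, 964 and 427), Capg, a capping protein of actin filaments (91.3, 437 and 258), Ctse, cathepsin E (36.5, 205 and 65.7), and Upk3bl1 (137, 1026 and 308), of which Upk3bl1 was read by a further probe that differed by 2.71. Further falls were Azgp1, a zinc-binding glycoprotein of fat mobilisation (179, 77.8 and 115), Abca4, a retinoid transporter (111, 48.0 and 122), Vamp7, a vesicle fusion protein (942, 422 and 896), and Prim2, a primase subunit (519, 219 and 436). Pnn, a nuclear speckle protein, fell on its chosen probe (128, 55.7 and 93.0, -1.20 log2), but its other measured probe differed by -0.23, and normexp took Azgp1 (-0.82 log2), Abca4 (-0.71) and Pnn (-0.74) under 2-fold. The 10 brightest genes of the control array, among them Rpl41 (65561, 59655 and 54364), Miox, a proximal tubule enzyme of inositol breakdown (51008, 41279 and 37947), and Kap, the androgen-regulated kidney protein (43106, 52670 and 49994), differed by -0.35 to 0.29.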

How the data were processed

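Kidney RNA of 3 groups was measured on 1 array each of a rat oligonucleotide design with a single dye, Cy3, per the labels. Spot intensity in the green channel was read by the authors with GenePix Pro 6.1.0.4, which subtracted a background of 39 or 40, per the file headers. Agilent Feature Extraction is the program named in the submitters' processing notes although the file columns have GenePix names. The signal-to-noise ratio of each spot was deposited as a score, and saturated pixels as a percent of the spot, per the file headers. A log2 table deposited by the authors, whose scaling the sources do not give, served as an alternative. A mouse design is named in the header of the high-dose scan, although all 45220 spots carry the rat identifiers, so the high-dose array is shown only beside the comparison.

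Control spots, bright spots that the software had not found (6, 5 and 6 in dose order) and spots with a pixel mean and median over 1.5-fold apart (166, 139 and 80 in the same order) were left out. Net intensities of a probe's spots were averaged and scaled to an equal 75th percentile (factors 1.14, 0.960 and 0.912), floored at 1 and turned into log2 values. Above background means that 50% or more of a probe's spots had a ratio of at least 3, which held for 50.4%, 52.0% and 54.7% of 30365 probes. Probes were named through RefSeq accessions (18809), current symbols (2533), synonyms (407) or the symbol in the files (1689), and 6929 had no symbol. Each gene was read from the probe detected on the most arrays, and among equals from the brightest. The files name no genome build, so array probes have no coordinates here, and promoter coordinates are those of RefSeq windows.

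With 1 array per group a size rule of 2-fold took the place of a test, and the lists are described by counts and medians beside those of all genes. An at-least fold divides the bright value by the dim value or by the lowest detected value of the dim array, whichever is larger. The script was tested on simulated data. Tools were Python 3.11.15, pandas 2.3.3, numpy 2.4.6, matplotlib 3.10.9, R 4.3.3 and limma 3.58.1 (normexp, offset 50). Named genes were the first members of each list, its largest differences and genes ranked 11 to 30 among stable differences. Genes on 5 or more spots that did not overlap between the arrays, the largest at-least folds and the brightest genes were added. The members, lists and rules were chosen with earlier results of these data known. Some genes that these rules name are not reported here. Motifs and the limit on uneven spots were chosen after the values were seen. Alternatives were normexp, quantile or median scaling, pixel medians, a ratio of 5, no filter on dim probes, uneven spots kept, the mean over a gene's probes, no spots of the weak corner, the authors' table and 32 added before the log.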

Additional observations from a re-analysis of the deposited data

How the results depend on the processing

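The counts of genes that were at least 2-fold higher or lower, or 1.5-fold higher or lower, were 241, 66, 655 and 445. They became 133, 23, 354 and 139 with normexp, 155, 28, 434 and 203 with 32 added before the log, and 951, 1721, 1958 and 3108 without the filter on dim probes. Both of the first settings draw dim values together by construction. Of the 241 and 66 genes, normexp kept 131 and 23. Under the other 8 settings the counts stayed within 1.5 times, with partly different genes: 232 of 241 and 53 of 66 were shared with the authors' deposited table. The medians of the 57 lists moved by less than the technical SD of 0.30 in all 627 comparisons with an alternative. That SD is for single spots, and many list medians are themselves smaller than it, so this limit cannot show that those medians held. With normexp the proliferation median went from 0.24 to 0.05 and that of the transforming growth factor list from 0.03 to -0.03. Of the alternative values of single named genes 4012 moved by less than that SD, 192 moved by more and 0 called values changed sign, and 10 medians of marker lists moved by more against 133 that did not. The median over all genes shifted by at most 0.037 between settings. No paired analysis was possible because each group has 1 array and the labels give no replicate numbers. With 1 pool of 4 rats per group, the spread between animals is unknown, and signal near background limits what the dim genes can show.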

Other observations

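Probes that carry no gene name rose less often than named genes, of which 241 rose and 66 fell among 9746. Of 2898 unnamed probes detected on both arrays, 26 rose and 18 fell past 2-fold at the low dose, with a median of -0.07 log2. Among 632 genes known only by a placeholder symbol, 15 were higher and 9 lower.

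Genes with more than 1 measured probe gave a check within the arrays. There were 1253 of them, and the median of the largest gap between a gene's probes was 0.17 log2. Of 30 that differed by at least 2-fold on the chosen probe, 20 had every other probe past 1.5-fold in the same direction. Col1a1, whose chosen probe was 3.21 log2 higher, was 2.18 higher on its other probe, and Cidea, a lipid droplet protein of brown fat, gave 2.81 and 2.99.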
